A study of Homo sapiens with 18 samples.

Results

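The expression of 37 glycolysis and hypoxia response genes was examined among the 35933 genes for which the deposited table held values. The genes were chosen by name and sorted by role into glucose uptake (2 genes), upper glycolysis from hexokinase to triose phosphate isomerase (9 genes), lower glycolysis from GAPDH to lactate dehydrogenase (8 genes), lactate transport (2 genes), regulatory kinases (4 genes) and hypoxia response (12 genes). RNA had been sequenced from 18 libraries in 6 groups, which were the negative CRISPR control and a METTL3 CRISPR line of MCF10A, MCF10AT1 and MCF10CA1h, with replicates a, b and c in each. The sample titles mark these arms WT and M3. They are called control and knockdown, or labelled knockdown, after the paper's comparison of negative CRISPR and knockdown lines. MCF10A is a spontaneously immortalized breast epithelial line that does not form tumors, MCF10AT1 is MCF10A with a stably integrated mutant HRas, and MCF10CA1h is a malignant line that arose from MCF10AT1 through mouse xenografts. All 6 groups had been transfected with a Cas9 construct that also makes mCherry, carrying either a control guide or a guide against exon 1 of METTL3, the catalytic subunit of the enzyme that places N6-methyladenosine (m6A) on mRNA. They were then sorted and grown from single cells. Each group is therefore 1 clonal line, and its 3 libraries do not sample the differences between clones. The p-values below measure the spread between these libraries, which may be technical.

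Glycolysis breaks glucose down to pyruvate in the cytosol, and lactate dehydrogenase turns pyruvate into lactate, which leaves the cell through monocarboxylate transporters. When oxygen is low, the prolyl hydroxylases that mark hypoxia-inducible factor (HIF) for destruction slow down. HIF then accumulates and induces most glycolytic genes together with genes for angiogenesis, pH control and mitophagy. Tumor cells often run glycolysis at a high rate even with oxygen present, and mutant RAS and HIF are both known to drive this. No low-oxygen treatment is named in the sample labels.

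All values are the authors' normalized counts. They are not divided by gene length, so no level is compared between genes. The sums over all genes ranged from 21347352 to 31681834 per library. The reads behind each value could not be recovered, so the depth per gene is unknown. Replicates were close in MCF10CA1h and less so in MCF10AT1. The median gene of a library lay between 0.16 and 0.22 log2 units from the mean of the other 2 libraries of its group in MCF10CA1h, between 0.23 and 0.43 in MCF10A, and between 0.28 and 0.69 in MCF10AT1. METTL3 (ENSG00000165819), the target, was 632 ± 154 (SD, n = 3) in control and 810 ± 261 (SD, n = 3) in labelled knockdown libraries of MCF10A, 930 ± 111 and 823 ± 75.2 in MCF10AT1, and 1135 ± 132 and 804 ± 52.3 in MCF10CA1h. The exact permutation p (two-sided) was 0.3, 0.3 and 0.1 in the 3 lines, where 0.1 is the smallest p that 3 against 3 allows. The limma fit called the MCF10CA1h difference alone (log2 fold change -0.49, adjusted p = 0.0234). METTL3 RNA was not shown to be lower in MCF10A or MCF10AT1, so control and knockdown serve as names of the arms throughout. The paper reported less METTL3 protein by Western blot in knockdown clones of each line, only moderately so in MCF10CA1h. By real-time PCR it found a smaller decrease of the mRNA. Its m6A measure on total RNA fell significantly in MCF10AT1 and MCF10CA1h and not significantly in MCF10A. RNA libraries do not measure the protein.

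Cell type markers were read in the same libraries. The summed level of 12 epithelial markers was between 103525 and 153825 in MCF10AT1 controls and between 25979 and 55139 in the MCF10AT1 knockdown, where KRT19, ESRP1 and RAB25 averaged 10 or less. In the same comparison the sum of 12 mesenchymal markers went from between 5701 and 6490 to between 135274 and 208074, with 7 of 12 markers above 10 in control and 10 of 12 in knockdown libraries. The sum of 4 immune markers was between 776 and 1524 and then between 1972 and 2965. In MCF10A the epithelial sum was between 172007 and 207547 in control and between 257405 and 304707 in knockdown libraries, with mesenchymal sums of 10337 to 17539 and 7484 to 12834. In MCF10CA1h the epithelial sums were 314957 to 342984 and 415931 to 445139, and the mesenchymal sums 28687 to 33742 and 41692 to 52706. KRT19 and RAB25 averaged 10 or less in both arms of MCF10CA1h, as did GRHL2. Of 5 endothelial markers CDH5 and VWF averaged 10 or less in every group, whereas PECAM1 went from 84.0 ± 98.0 to 458 ± 109 in MCF10A, from 517 ± 314 to 502 ± 129 in MCF10AT1 and from 97.4 ± 23.5 to 43.4 ± 16.9 in MCF10CA1h (SD, n = 3). KDR and TEK averaged 18.5 and 18.8 in MCF10A controls, and KDR 13.2 in MCF10CA1h controls. The summed endothelial level lay between 46.1 and 867 over all libraries. Of the immune markers PTPRC and CD3E averaged 10 or less in every group, and group means ran from 62.6 to 2075 for CD14 and from 185 to 1139 for CD68. The sums follow mainly the markers with the highest counts. By limma (adjusted p under 0.05), EPCAM, CDH1, KRT5, KRT14, KRT17, ESRP1, RAB25 and GRHL2 were lower in the MCF10AT1 knockdown. VIM, CDH2, COL3A1, THY1 and FN1 were higher there, and KRT8, KRT18, KRT19, TP63, COL1A1, PDGFRB, DCN, S100A4 and ZEB1 were not called. Of the epithelial and mesenchymal markers KRT5 alone was called in MCF10A, higher. In MCF10CA1h, KRT5, KRT14, KRT17, DCN and FN1 were higher and COL3A1 lower. The part of these markers in the results was not tested. These are bulk libraries, in which fewer cells of a kind and less RNA per cell cannot be told apart.

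HIF binds DNA at a short core sequence, so the promoters of the genes were searched for its ACGTG form alone. The 250 bases before each annotated start were taken from RefSeq (GRCh38.p14) and searched for ACGTG on both strands, which reads CACGT on the reverse strand. The palindrome CACGTG, which other factors also bind, counts on both. Of 35116 windows of all genes 18.5% held a match, and of 60 windows of 32 of the 37 genes 22 did (36.7%). Counted by gene, 19 of these 32 (59.4%) had a match in at least 1 window, beside 21.7% of 27305 genes. A gene with more windows has more room for a match, and the sets were not matched by windows per gene or by base composition. The 37 genes were chosen by name partly as hypoxia response genes, so these shares are a description and not a test. No window was at hand for SLC2A3, SLC16A1, VEGFA, NDRG1 and BNIP3L. The windows printed are those of the 4 genes that were called with at least a 2-fold change in a knockdown comparison, without the replicate block, and held a match, 5′ to 3′ on the strand of the gene, with every match in capitals. Every one of the 4 lies on the plus strand and has no base in an annotated exon of its gene, and each is spanned by at least 1 longer transcript of that gene, of which it is intron. HK2 (chr2:74834920-74835169) has 4 matches in a pair of palindromes that begin 194 and 149 bases before the start. PFKP (chr10:3068939-3069188) has 1, at 139 bases, and only 1 of the 4 windows of this gene held a match. SLC16A3 (chr17:82228792-82229041) has 2, at 68 and 55 bases, and only 1 of the 5 windows of this gene held a match. ANGPTL4 (chr19:8363905-8364154) has 1, at 234 bases. For a gene with several windows, the window with the most matches is printed.
HK2: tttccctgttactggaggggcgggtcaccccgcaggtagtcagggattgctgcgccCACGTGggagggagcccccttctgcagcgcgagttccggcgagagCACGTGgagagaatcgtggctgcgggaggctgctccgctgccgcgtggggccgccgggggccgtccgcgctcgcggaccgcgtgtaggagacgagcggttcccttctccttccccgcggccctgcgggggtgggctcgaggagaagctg
PFKP: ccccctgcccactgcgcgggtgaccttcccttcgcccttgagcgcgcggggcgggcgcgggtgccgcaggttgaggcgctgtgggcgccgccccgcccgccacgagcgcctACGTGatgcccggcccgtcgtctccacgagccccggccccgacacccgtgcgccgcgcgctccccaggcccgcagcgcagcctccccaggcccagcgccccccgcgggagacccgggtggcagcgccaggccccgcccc
SLC16A3: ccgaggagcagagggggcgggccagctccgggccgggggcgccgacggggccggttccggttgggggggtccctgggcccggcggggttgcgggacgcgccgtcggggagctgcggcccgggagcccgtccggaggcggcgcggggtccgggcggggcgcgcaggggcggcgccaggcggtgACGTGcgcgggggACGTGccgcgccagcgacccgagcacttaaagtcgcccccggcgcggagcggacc
ANGPTL4: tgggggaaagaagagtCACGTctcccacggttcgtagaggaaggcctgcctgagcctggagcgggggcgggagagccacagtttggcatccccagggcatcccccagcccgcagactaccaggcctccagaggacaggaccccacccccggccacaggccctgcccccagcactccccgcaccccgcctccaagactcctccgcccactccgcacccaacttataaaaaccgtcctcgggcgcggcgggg
The windows of CA12, ADM, EGLN3 and PGF held no match, which says only that these letters are not in those windows. A match is a description of the sequence and not a bound site.

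All 37 genes passed the filter on low values in every comparison, which asked for 10 or more normalized counts on average in the libraries compared. The knockdown was compared with control within each line, to see how these genes differed at each stage of the model. A gene was called at a Benjamini-Hochberg adjusted p under 0.05 over all tested genes. In MCF10A, 2 of the 37 were called, PGF higher and SLC2A3 lower, against 2.65% of all tested genes (1.16% higher and 1.49% lower). In MCF10AT1, 8 were called, 5 higher and 3 lower, against 13% of all tested genes (7.07% higher and 5.96% lower). In MCF10CA1h, 9 were called, 8 higher and 1 lower, against 12.8% of all tested genes (7.91% higher and 4.85% lower). The median log2 fold change of the 37 was -0.02, 0.13 and 0.24 in the 3 lines, and that of all tested genes -0.00, 0.02 and -0.02. With libraries scaled to equal sums the median of the 37 was 0.07, -0.04 and 0.18, and that of all tested genes 0.08, -0.14 and -0.08, so the sign of the first 2 medians depends on the scaling. The unadjusted p was under 0.05 for 8, 12 and 16 of the 37. The share of all tested genes at that level was not counted, so neither these nor later counts of unadjusted p are read as an excess. SLC2A3 and PGF were called in all 3 lines, SLC16A3 and ADM in 2, 9 genes in 1, and 24 in none. The share of all tested genes called in more than 1 line was not counted, so these numbers are not read as an excess either.

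**Figure D1:**
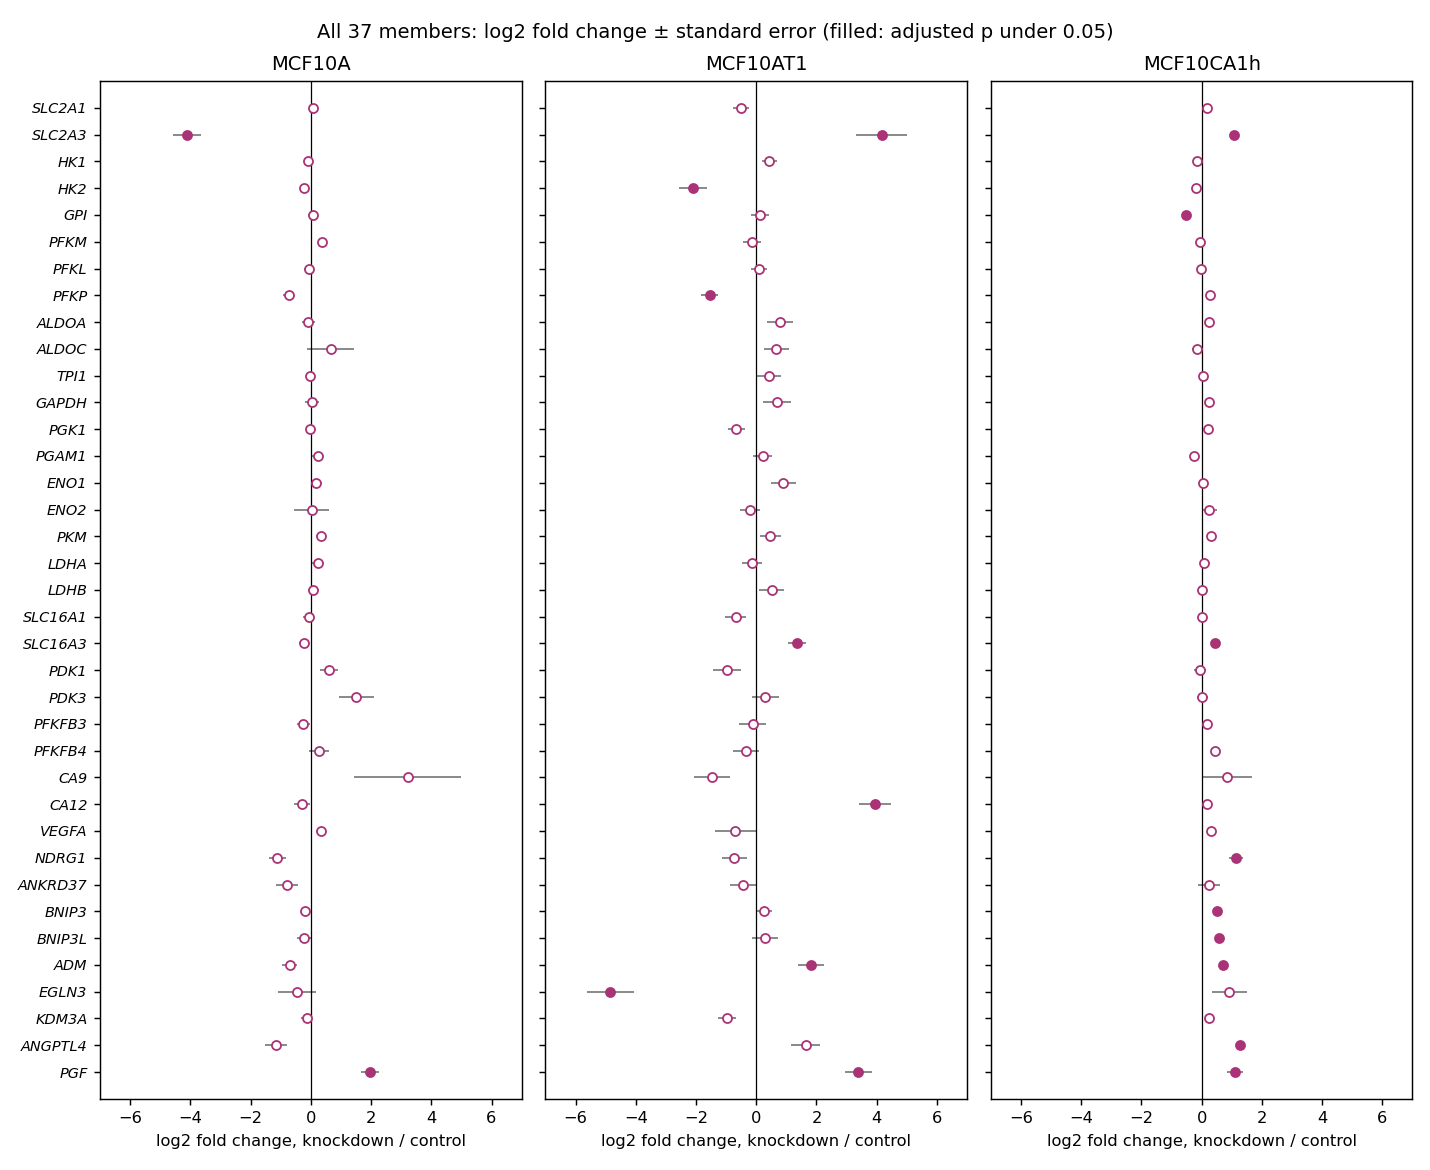
Log2 fold change of labelled knockdown over control (x axis) for each of the 37 genes (rows) in MCF10A, MCF10AT1 and MCF10CA1h; bars are standard errors of the fit with 3 libraries per group and filled points have an adjusted p under 0.05. The filled points number 2, 8 and 9 from left to right, and the longest bar belongs to CA9 in MCF10A (1.77).

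Same-lettered libraries deviated together in MCF10A and MCF10AT1, and with the letter as a replicate block more genes were called there. In MCF10A the count went from 2 to 5 of the 37 (7.6% of all tested genes), adding PDK3 higher and PFKP and NDRG1 lower. In MCF10AT1 it went from 8 to 11 (24.5% of all tested genes), adding ANGPTL4 higher and CA9 and KDM3A lower. Leaving out 1 library at a time gave 1 to 6 genes in MCF10A, with SLC2A3 called each time. PGF was called in 2 of these 6 fits, those without control a and without control c, and the 6 genes came without control a. The count was 3 to 8 in MCF10AT1. CA12, EGLN3 and PGF were called each time there and were the 3 left without knockdown b, while 5 were called without control a and 5 without knockdown a. In MCF10CA1h it was 5 to 9, with 5 left without knockdown b (SLC2A3, SLC16A3, NDRG1, ANGPTL4 and GPI). When all 18 libraries shared a single estimate of spread, MCF10CA1h kept none of its calls, though 7 genes had an unadjusted p under 0.05, and MCF10AT1 had 16, adding SLC2A1, HK1, ALDOA, PGK1, ENO1, SLC16A1, KDM3A and ANGPTL4. In that fit 248 of 15897 genes were called in MCF10CA1h and 5146 in MCF10AT1.

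Both genes of glucose uptake were measured, and SLC2A3 gave the widest contrast between lines of all 37. SLC2A3 encodes GLUT3, a high-affinity glucose transporter (ENSG00000059804, chr12:7919230-8019007 of hg38, minus strand). In MCF10A its normalized counts in replicates a, b and c were 813, 907 and 885 in control and 26.8, 113 and 39.8 in knockdown libraries. In MCF10AT1 they were 4.12, 37.6 and 62.7 in control and 362, 416 and 482 in knockdown libraries. In MCF10CA1h they were 241, 268 and 270 in control and 487, 580 and 565 in knockdown libraries. The arms did not overlap in any line, with the knockdown below control in MCF10A and above it in the others. The log2 fold changes were -4.10 (SE 0.46, adjusted p = 0.00803), 4.17 (SE 0.85, adjusted p = 0.0146) and 1.06 (SE 0.14, adjusted p = 0.000942). In MCF10AT1 the log2 fold change was 3.08 without control a and 4.89 without control c. The call in MCF10AT1 was lost in 2 of the 6 fits that left out a library. Each of the 3 pairs of lines differed in this effect, by 8.27 between MCF10AT1 and MCF10A (SE 0.92, adjusted p = 7.02e-06), by 5.16 between MCF10CA1h and MCF10A (SE 0.92, adjusted p = 0.00327) and by -3.11 between MCF10CA1h and MCF10AT1 (SE 0.92, adjusted p = 0.0275).

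SLC2A1, which encodes GLUT1, the widespread basal glucose transporter, was not called in any line. Its mean was 6828 ± 652 in control and 7194 ± 773 in knockdown libraries of MCF10A, 2056 ± 419 and 1448 ± 163 in MCF10AT1, and 5033 ± 219 and 5758 ± 555 in MCF10CA1h (SD, n = 3 each). In MCF10AT1 every knockdown library was below every control library, and in MCF10CA1h every one was above, with log2 fold changes of -0.49 (adjusted p = 0.272) and 0.19 (adjusted p = 0.226). The effect of the knockdown differed between these 2 lines by 0.68 (SE 0.23, adjusted p = 0.0462).

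**Figure D2:**
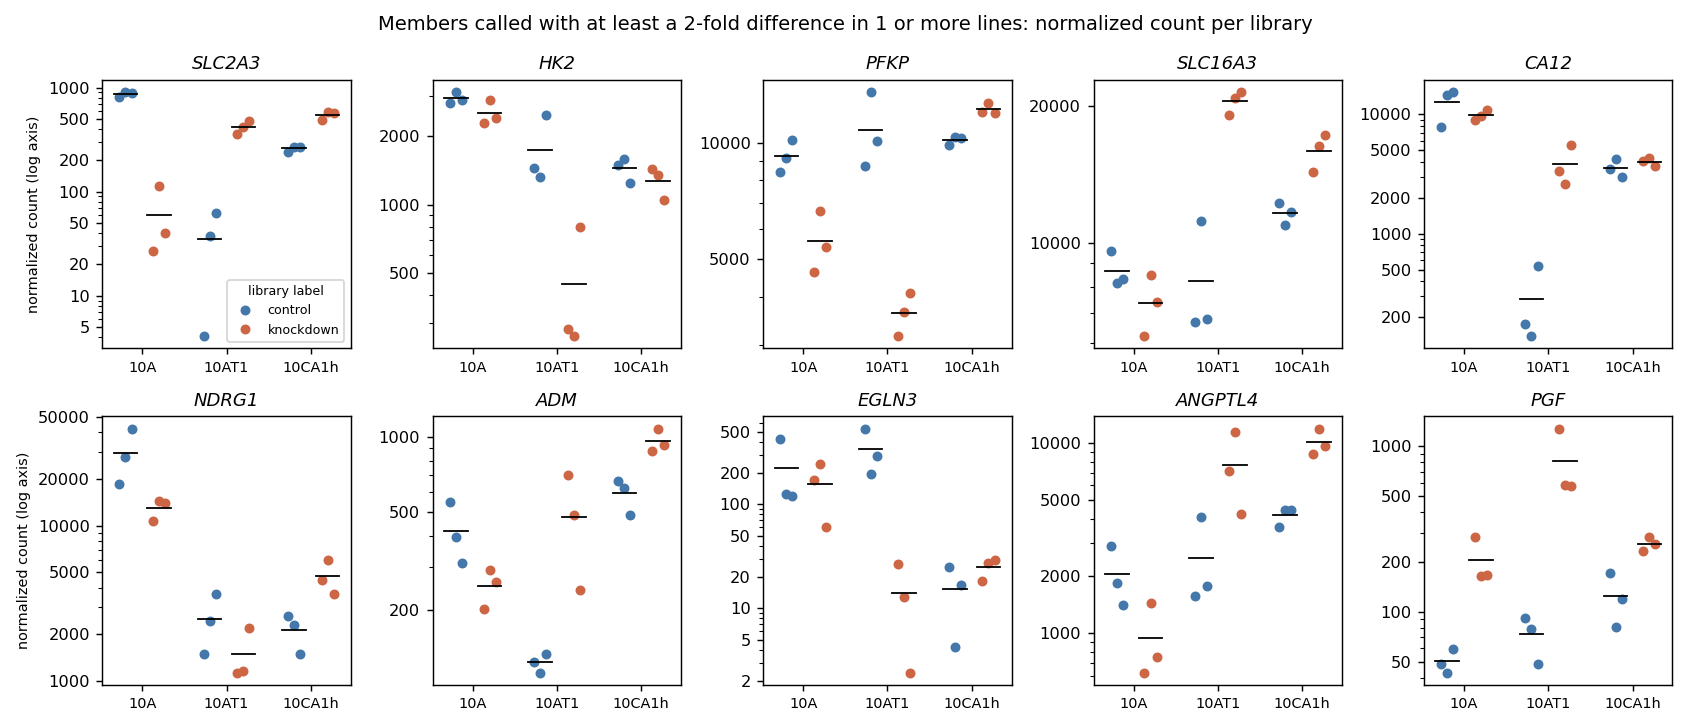
Normalized count in each library (points, log axis) with the group mean (line) of the 10 genes called with a log2 fold change of at least 1 in size in 1 or more lines, for control (blue) and labelled knockdown (orange) libraries of MCF10A, MCF10AT1 and MCF10CA1h, replicates a, b and c from left to right. SLC2A3 is below control in the MCF10A knockdown and above it in the other lines, and PGF is above control in all 3.

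In upper glycolysis, 3 of 9 genes were called in any line, HK2 and PFKP in MCF10AT1 and GPI in MCF10CA1h, and all were lower in the knockdown. HK2 encodes hexokinase 2, the inducible enzyme that traps glucose in the cell as glucose 6-phosphate (ENSG00000159399, chr2:74834127-74893359, plus strand). In MCF10AT1 its counts were 1442, 1322 and 2469 in control and 283, 264 and 799 in knockdown libraries. Replicate c was the highest of each arm, and the arms did not overlap (log2 fold change -2.10, SE 0.47, adjusted p = 0.0231). In MCF10A the counts were 2795, 3131 and 2883 in control and 2280, 2899 and 2411 in knockdown libraries, and in MCF10CA1h 1492, 1582 and 1249 and 1427, 1353 and 1042. The arms overlapped in these 2 lines, and neither change was called (log2 fold changes -0.22 and -0.18). The MCF10AT1 change differed from that of MCF10A by -1.88 (SE 0.47, adjusted p = 0.00788), and that of MCF10CA1h differed from MCF10AT1 by 1.91 (SE 0.47, adjusted p = 0.0084). With 1 library left out, HK2 stayed past the threshold in 2 of 6 fits in MCF10AT1. Its constitutive relative HK1 was not called in any line, with log2 fold changes of -0.09, 0.43 and -0.15.

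PFKP encodes the platelet form of phosphofructokinase, the committed step of glycolysis (ENSG00000067057, chr10:3066333-3137718, plus strand). In MCF10AT1 its counts were 8720, 13548 and 10097 in control and 3166, 3651 and 4094 in knockdown libraries. Every knockdown library was below every control library (log2 fold change -1.55, SE 0.27, adjusted p = 0.00758). In MCF10A the counts were 8394, 9141 and 10176 in control and 4647, 6669 and 5388 in knockdown libraries. The arms were again apart, and the change was not called without the replicate block (log2 fold change -0.74, SE 0.17, adjusted p = 0.0666) and called with it (adjusted p = 0.0198). In MCF10CA1h, where the counts were 9878, 10327 and 10312 in control and 12016, 12715 and 11947 in knockdown libraries, the knockdown was the higher arm, also short of the threshold (log2 fold change 0.26, SE 0.08, adjusted p = 0.0558). PFKP was the only gene besides SLC2A3 whose knockdown effect differed in all 3 pairs of lines, by -0.81 for MCF10AT1 against MCF10A (SE 0.25, adjusted p = 0.0271), 1.01 for MCF10CA1h against MCF10A (SE 0.25, adjusted p = 0.0256) and 1.82 for MCF10CA1h against MCF10AT1 (SE 0.25, adjusted p = 5.79e-05). The other forms, PFKM of muscle and PFKL of liver, were not called in any line, with log2 fold changes of 0.37, -0.13 and -0.06 and of -0.07, 0.08 and -0.03.

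GPI, which turns glucose 6-phosphate into fructose 6-phosphate, fell in MCF10CA1h from 22912 ± 998 to 15901 ± 1947 (SD, n = 3; log2 fold change -0.53, SE 0.10, adjusted p = 0.00847). It was called in all 6 fits that left out a library. Its means in the other lines were 15616 ± 1954 and 16487 ± 2074 in MCF10A and 23792 ± 4355 and 26276 ± 6723 in MCF10AT1. The aldolases ALDOA and ALDOC and triose phosphate isomerase, TPI1, which make and interconvert the triose phosphates, were not called in any line. In MCF10AT1 the ALDOA counts were 48466, 61065 and 30803 in control and 110862, 85635 and 49175 in knockdown libraries, so the arms overlapped (log2 fold change 0.79, SE 0.42, adjusted p = 0.274). ALDOC had log2 fold changes of 0.66, 0.66 and -0.16 and TPI1 of -0.02, 0.43 and 0.03.

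None of the 8 genes of lower glycolysis was called by limma in any line, and 0, 1 and 3 of them had an unadjusted p under 0.05 in MCF10A, MCF10AT1 and MCF10CA1h. GAPDH, which oxidizes glyceraldehyde 3-phosphate and is often used as a reference gene, was 129311 ± 36466 in control and 130070 ± 12018 in knockdown libraries of MCF10A. In MCF10AT1 its counts were 252557, 316179 and 146774 in control and 478618, 386322 and 265674 in knockdown libraries, which overlap (log2 fold change 0.69, SE 0.46, adjusted p = 0.379). The other log2 fold changes in MCF10AT1 ran in both directions, from -0.66 for PGK1 (phosphoglycerate kinase) to 0.90 for ENO1 (enolase 1). PGAM1 (phosphoglycerate mutase), ENO2 (neuronal enolase), PKM (pyruvate kinase), LDHA and LDHB (the lactate dehydrogenase subunits) lay between, at 0.21, -0.21, 0.46, -0.14 and 0.51. In MCF10CA1h, PKM came closest to the threshold, with 94217 ± 4484 in control and 117530 ± 8141 in knockdown libraries (log2 fold change 0.32, SE 0.09, adjusted p = 0.054), and PGAM1 (-0.25, adjusted p = 0.0688) and PGK1 (0.22, adjusted p = 0.0954) followed. The remaining log2 fold changes of the group in MCF10CA1h were 0.24 for GAPDH, 0.04 for ENO1, 0.26 for ENO2, 0.07 for LDHA and 0.02 for LDHB. In MCF10A they were 0.04 for GAPDH, -0.02 for PGK1, 0.23 for PGAM1, 0.18 for ENO1, 0.03 for ENO2, 0.35 for PKM, 0.23 for LDHA and 0.08 for LDHB. With libraries scaled to equal sums PGAM1 was called lower and PKM higher in MCF10CA1h. The knockdown effect on PGK1 differed by 0.89 between MCF10CA1h and MCF10AT1 (SE 0.24, adjusted p = 0.0166).

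Of the lactate transporters, SLC16A3 was higher in the knockdown of MCF10AT1 and MCF10CA1h. It encodes MCT4, the monocarboxylate transporter of strongly glycolytic cells (ENSG00000141526, chr17:82217934-82261129, plus strand). In MCF10AT1 its counts were 6689, 11154 and 6798 in control and 19087, 20780 and 21444 in knockdown libraries. In MCF10CA1h they were 12220, 10950 and 11658 in control and 14269, 16280 and 17267 in knockdown libraries, and in MCF10A 9581, 8129 and 8325 and 6233, 8471 and 7417. The arms were apart in MCF10AT1 and MCF10CA1h and overlapped in MCF10A. The log2 fold changes were 1.36 in MCF10AT1 (SE 0.30, adjusted p = 0.0196), 0.45 in MCF10CA1h (SE 0.10, adjusted p = 0.013) and -0.24 in MCF10A (SE 0.16, adjusted p = 0.482). The call in MCF10AT1 held in 2 of the 6 fits that left out a library and that in MCF10CA1h in all 6. MCF10AT1 differed from MCF10A in this effect by 1.60 (SE 0.26, adjusted p = 0.000335), and MCF10CA1h from MCF10AT1 by -0.90 (SE 0.26, adjusted p = 0.0251). SLC16A1, which encodes MCT1 and carries lactate in either direction, was not called (log2 fold changes -0.07, -0.68 and 0.02).

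None of the 4 regulatory kinases was called by limma in any line, and 1, 0 and 1 of them had an unadjusted p under 0.05 in MCF10A, MCF10AT1 and MCF10CA1h. PDK1 and PDK3 encode pyruvate dehydrogenase kinases, which hold pyruvate back from mitochondrial oxidation. PDK1 was 453 ± 93 in control and 724 ± 311 in knockdown libraries of MCF10A, and 472 ± 314 and 215 ± 46.4 in MCF10AT1, with arms that did not overlap in either line. The log2 fold changes, 0.62 (adjusted p = 0.326) and -0.96 (adjusted p = 0.228), were not called singly, but they differed from each other by -1.58 (SE 0.53, adjusted p = 0.0429). In MCF10CA1h the log2 fold change of PDK1 was -0.06. PDK3 in MCF10A was 61, 113 and 20.6 in control and 137, 218 and 116 in knockdown libraries, and the log2 fold change of 1.51 was called with the replicate block (adjusted p = 0.0433) and not without it (adjusted p = 0.212). In the other lines PDK3 was at 0.29 and 0.02. PFKFB3 and PFKFB4, which set the level of the phosphofructokinase activator fructose 2,6-bisphosphate, had log2 fold changes of -0.25, -0.12 and 0.18 and of 0.28, -0.34 and 0.44.

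The hypoxia response genes held most of the calls in MCF10CA1h. Of the 12 genes, 1 was called in MCF10A (PGF, higher), 4 in MCF10AT1 (CA12, ADM and PGF higher, EGLN3 lower) and 6 in MCF10CA1h (NDRG1, BNIP3, BNIP3L, ADM, ANGPTL4 and PGF, all higher). The shares of all tested genes called were 2.65%, 13% and 12.8% in the 3 lines. None of the 12 was called in MCF10CA1h when all 18 libraries shared a single estimate of spread. All 12 log2 fold changes were above 0 in MCF10CA1h, with a median of 0.64, whereas 6 of 12 were in MCF10AT1 (median -0.09) and 3 of 12 in MCF10A (median -0.26). The median of all tested genes in MCF10CA1h was -0.02, and their share above 0 was not counted. PGF encodes placental growth factor, an angiogenic relative of VEGF (ENSG00000119630, chr14:74941834-74955626, minus strand). Its counts in MCF10A were 48.4, 42.8 and 59.4 in control and 281, 164 and 166 in knockdown libraries. In MCF10AT1 they were 91.7, 78.8 and 48.2 in control and 1275, 581 and 570 in knockdown libraries. In MCF10CA1h they were 171, 80.5 and 119 in control and 231, 283 and 255 in knockdown libraries. Every knockdown library was above every control library of its line. The log2 fold changes were 1.97 (SE 0.31, adjusted p = 0.0191), 3.40 (SE 0.44, adjusted p = 0.00168) and 1.11 (SE 0.25, adjusted p = 0.0187), and the last differed from that of MCF10AT1 by -2.29 (SE 0.51, adjusted p = 0.00459). VEGFA, the main angiogenic factor of hypoxia, was not called, with log2 fold changes of 0.33, -0.70 and 0.30. Its MCF10AT1 counts were 1865, 1320 and 5050 in control and 646, 1238 and 3640 in knockdown libraries, with replicate c highest in each arm.

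ADM and ANGPTL4 are the other secreted products. ADM encodes adrenomedullin, a vasodilator peptide (ENSG00000148926, chr11:10305073-10307397, plus strand). Its counts were 124, 112 and 134 in control and 702, 485 and 243 in knockdown libraries of MCF10AT1, 666, 624 and 484 and then 878, 1079 and 924 in MCF10CA1h, and 544, 393 and 311 and then 202, 292 and 260 in MCF10A. The arms were apart in all 3 lines, with the knockdown above control in MCF10AT1 (log2 fold change 1.82, SE 0.43, adjusted p = 0.0277) and MCF10CA1h (0.71, SE 0.15, adjusted p = 0.0115) and below it, without a call, in MCF10A (-0.70, SE 0.26, adjusted p = 0.199). MCF10AT1 differed from MCF10A in this effect by 2.52 (SE 0.44, adjusted p = 0.000547). The MCF10AT1 call held in 2 of 6 fits that left out a library, and ADM was not called there when libraries were scaled to equal sums. ANGPTL4 encodes an inhibitor of lipoprotein lipase (ENSG00000167772, chr19:8363289-8374370, plus strand). In MCF10CA1h its counts were 3626, 4450 and 4458 in control and 8779, 11926 and 9659 in knockdown libraries, a log2 fold change of 1.27 with the smallest adjusted p of the 37 genes in that line (SE 0.13, adjusted p = 0.000249). In MCF10AT1 they were 1577, 4075 and 1782 in control and 7185, 11495 and 4221 in knockdown libraries, which do not overlap. That change was not called without the replicate block (1.64, SE 0.47, adjusted p = 0.0576) and called with it (adjusted p = 0.000751). In MCF10A the counts of 2896, 1831 and 1412 in control and 622, 1444 and 754 in knockdown libraries overlapped (-1.15, SE 0.36, adjusted p = 0.136). The ANGPTL4 effect differed from that of MCF10A by 2.80 in MCF10AT1 (SE 0.57, adjusted p = 0.00196) and by 2.43 in MCF10CA1h (SE 0.57, adjusted p = 0.0193).

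CA12 and CA9 encode membrane carbonic anhydrases, which help glycolytic cells to export acid. CA12 (ENSG00000074410, chr15:63321378-63381846, minus strand) was 174, 140 and 536 in control and 3348, 2627 and 5530 in knockdown libraries of MCF10AT1. Each MCF10AT1 knockdown library was above each control (log2 fold change 3.95, SE 0.53, adjusted p = 0.00195). The counts in MCF10A were 7873, 14403 and 15357 in control and 8864, 9671 and 10939 in knockdown libraries, and in MCF10CA1h 3479, 4207 and 2958 and 4080, 4267 and 3707. The arms overlapped in these lines (-0.30 and 0.19, not called). The CA12 effect of MCF10AT1 exceeded that of MCF10A by 4.25 (SE 0.56, adjusted p = 3.77e-05), and that of MCF10CA1h differed from MCF10AT1 by -3.76 (SE 0.56, adjusted p = 0.000135). CA9, a classical HIF target, had log2 fold changes of 3.21 in MCF10A (SE 1.77, adjusted p = 0.385), -1.47 in MCF10AT1 (SE 0.59, adjusted p = 0.148, and 0.0342 with the replicate block) and 0.83 in MCF10CA1h (SE 0.83, adjusted p = 0.566). Its MCF10A controls held 336, 6.84 and 0.

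EGLN3, NDRG1 and KDM3A are HIF targets with other functions. EGLN3 encodes PHD3, an oxygen-sensing prolyl hydroxylase that is itself induced by HIF (ENSG00000129521, chr14:33924227-34462774, minus strand). It was 534, 196 and 291 in control and 26.7, 12.8 and 2.41 in knockdown libraries of MCF10AT1. The highest knockdown library was well below the lowest control (log2 fold change -4.84, SE 0.79, adjusted p = 0.00521). In MCF10A it was 427, 127 and 120 in control and 172, 242 and 60.1 in knockdown libraries, and in MCF10CA1h 24.9, 4.22 and 16.9 and 18.2, 27.2 and 28.9. The arms overlapped there, and neither change was called (-0.45 and 0.92). The sign in MCF10A turned to 0.14 without control a and to 0.13 without knockdown c. The EGLN3 effect of MCF10AT1 differed from that of MCF10A by -4.39 (SE 1.09, adjusted p = 0.00779), and that of MCF10CA1h from MCF10AT1 by 5.76 (SE 1.09, adjusted p = 0.00127).

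NDRG1, a stress-responsive gene linked to differentiation (ENSG00000104419, chr8:133237175-133302022, minus strand), was 2636, 2291 and 1500 in control and 4453, 6056 and 3627 in knockdown libraries of MCF10CA1h. The arms were apart (log2 fold change 1.14, SE 0.22, adjusted p = 0.00819). In MCF10A, at 18558, 27918 and 42205 in control and 10744, 14403 and 13983 in knockdown libraries, the knockdown was the lower arm. That change was called with the replicate block (-1.11, adjusted p = 0.0106) and not without it (adjusted p = 0.0903). In MCF10AT1 the counts of 1485, 2435 and 3654 and of 1133, 1166 and 2193 overlapped (-0.73, adjusted p = 0.292). The NDRG1 effect of MCF10CA1h differed from MCF10A by 2.26 (SE 0.51, adjusted p = 0.0149) and from MCF10AT1 by 1.87 (SE 0.51, adjusted p = 0.0165). KDM3A, a histone H3 lysine demethylase, went from 845 ± 165 to 434 ± 114 in MCF10AT1 (SD, n = 3) with arms that did not overlap, a change called with the replicate block (-0.97, adjusted p = 0.0226) and not without it (adjusted p = 0.0823). Its effect differed by 1.23 between MCF10CA1h and MCF10AT1 (SE 0.30, adjusted p = 0.00923).

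The mitophagy receptors BNIP3 and BNIP3L rose together in MCF10CA1h. BNIP3 went from 708 ± 36.4 to 999 ± 56.8 (log2 fold change 0.50, SE 0.11, adjusted p = 0.0142) and BNIP3L from 376 ± 22.7 to 562 ± 52.8 (0.58, SE 0.13, adjusted p = 0.0162; SD, n = 3). Every knockdown library was above every control for both genes. Leaving out a library kept the call of BNIP3 in 3 of 6 fits and of BNIP3L in 4 of 6. In the other lines their log2 fold changes were -0.19 and 0.25 for BNIP3 and -0.23 and 0.30 for BNIP3L, without a call. ANKRD37, a small ankyrin repeat gene induced by HIF, was not called, at -0.79, -0.44 and 0.24.

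The difference of the knockdown effect between lines was tested for all 37 genes in a fit of the 18 libraries. MCF10AT1 differed from MCF10A for 9 genes (21.6% of all tested genes), MCF10CA1h from MCF10A for 4 (5.34%) and MCF10CA1h from MCF10AT1 for 12 (18.2%). These 3 tests share libraries, and the fit uses a single estimate of spread per gene for all lines. Replicates were closer in MCF10CA1h than in MCF10AT1. The standard errors can therefore be too small where MCF10AT1 takes part and too large for MCF10CA1h against MCF10A. In addition to the genes above, HK1 differed by -0.58 between MCF10CA1h and MCF10AT1 (SE 0.19, adjusted p = 0.0453). Without MCF10AT1 control b, or without MCF10AT1 knockdown c, the first of these counts became 15. The count for MCF10CA1h against MCF10A became 2 without MCF10A knockdown a, 2 without MCF10CA1h control a and 1 without MCF10CA1h knockdown b, and that for MCF10CA1h against MCF10AT1 became 7 without MCF10CA1h control c. In MCF10AT1 the epithelial and mesenchymal marker sums given above moved with the label, though not every marker did. The part of these markers in these differences was not tested.

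The genes of HIF itself and of its regulators were read beside the targets. HIF1A, the oxygen-regulated HIF-1 subunit, was called higher in the MCF10CA1h knockdown, at 3200, 3518 and 2705 in control and 5285, 4216 and 4225 in knockdown libraries (log2 fold change 0.54, SE 0.13, adjusted p = 0.0197). VHL, the ubiquitin ligase subunit that removes hydroxylated HIF, was called lower there, at 709, 734 and 742 in control and 446, 441 and 569 in knockdown libraries (-0.59, SE 0.13, adjusted p = 0.0159). The arms were apart for both genes, and each call held in 3 of the 6 fits that left out a library. Neither gene was called there by limma when all 18 libraries shared a single estimate of spread (adjusted p = 0.94 for HIF1A and 0.191 for VHL). In MCF10AT1, HIF1A was 2079, 602 and 6028 in control and 1095, 1770 and 8132 in knockdown libraries. Replicate c was the highest of each arm by a wide margin (0.35, SE 0.93, adjusted p = 0.84), and the sign turned to -0.50 without control b and to -0.50 without knockdown c. In MCF10A, HIF1A was 3166 ± 784 in control and 5145 ± 454 in knockdown libraries (0.72, adjusted p = 0.0926, and 0.0252 with the replicate block). EPAS1, which encodes HIF-2 alpha, was 14122 ± 6805 and 5673 ± 972 in MCF10A (-1.19, adjusted p = 0.132, and 0.0163 with the replicate block) and was not called in MCF10AT1 (-0.17) or MCF10CA1h (0.28). EGLN1, the main HIF prolyl hydroxylase gene, was not called (0.36, -0.51 and 0.08). These are RNA levels, and HIF is regulated largely at the level of the protein.

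**Figure D3:**
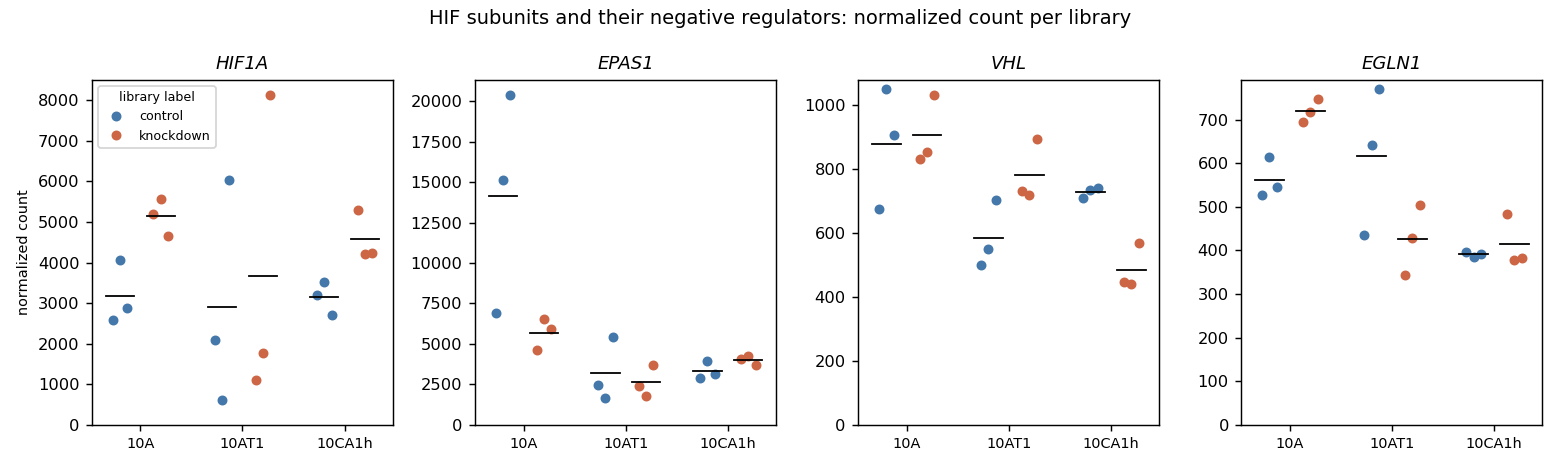
Normalized count (y axis, linear) in each library (points) with the group mean (line) of HIF1A, EPAS1, VHL and EGLN1 for control (blue) and labelled knockdown (orange) libraries of MCF10A, MCF10AT1 and MCF10CA1h, replicates a, b and c from left to right. In MCF10CA1h the knockdown lies above control for HIF1A and below it for VHL, and the MCF10AT1 replicates of HIF1A spread from 602 to 8132.

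Other genes of the pathways were counted from lists of 40 glycolysis-related and 40 hypoxia-related genes. Of all tested genes, 2.65% were called in MCF10A, 13% in MCF10AT1 and 12.8% in MCF10CA1h. With the replicate block the share was 7.6% in MCF10A and 24.5% in MCF10AT1. In MCF10A 1 of 30 tested glycolysis-related genes was called, PCK2 (mitochondrial phosphoenolpyruvate carboxykinase), which fell from 3229 ± 697 to 1224 ± 363 (log2 fold change -1.42, adjusted p = 0.026) and was called in 2 of the 6 fits that left out a library. None of 38 hypoxia-related genes was called by limma there, and 13 had an unadjusted p under 0.05. With the replicate block 8 of the 38 were called in MCF10A, 3 higher and 5 lower. In MCF10AT1, 6 of 30 glycolysis-related genes were called, 4 higher and 2 lower, and 12 with the replicate block, 6 in each direction. The hexokinase-like HKDC1 rose from 12.7 ± 3.25 to 94.2 ± 22.4 (2.80, adjusted p = 0.00684). TIGAR, a phosphatase that lowers fructose 2,6-bisphosphate, fell from 751 ± 283 to 152 ± 15.3 (-2.23, adjusted p = 0.0045) and PFKFB2, which makes and breaks it, from 458 ± 189 to 97.6 ± 27.8 (-2.18, adjusted p = 0.00924). Also called there were BSG (1.50), the chaperone of the lactate transporters, and PDK2, from 250 ± 39.5 to 579 ± 119.

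Of the 38 hypoxia-related genes tested in MCF10AT1, 7 were called, 3 higher and 4 lower, and 16 with the replicate block, 9 higher and 7 lower. NDUFA4L2, a HIF-induced mitochondrial protein, rose from 19.3 ± 19.1 to 556 ± 228 (5.27, adjusted p = 0.00364), IGFBP3 (insulin-like growth factor binding protein 3) from 256 ± 93.9 to 3998 ± 864 (4.01, adjusted p = 0.000239) and HMOX1 (heme oxygenase 1) from 116 ± 38.3 to 359 ± 62.3 (1.66, adjusted p = 0.0235). HMOX1 was called in 2 of the 6 fits that left out a library. INSIG2, which restrains sterol synthesis, fell from 447 ± 23.6 to 65.9 ± 7.91 (-2.75, adjusted p = 0.000991), and ERO1A (-1.43), AK4 (-1.14) and EFNA3 (-1.37) were lower as well. In MCF10CA1h, 4 of 30 glycolysis-related genes were called (13.3%), near the 12.8% of all tested genes. PDK4 (-1.87, adjusted p = 0.00164) and DLAT (-0.49, adjusted p = 0.029) were lower and SLC16A4 (1.05, adjusted p = 0.0166) and GYS1 (0.37, adjusted p = 0.0353) higher. These encode a pyruvate dehydrogenase kinase, a subunit of the pyruvate dehydrogenase complex, a monocarboxylate transporter and muscle glycogen synthase, and the calls of DLAT and GYS1 each held in 2 of the 6 fits that left out a library. Of 37 hypoxia-related genes tested in MCF10CA1h, 11 were called (29.7%, beside 12.8% of all tested genes), 6 higher and 5 lower. PPFIA4 (1.99, adjusted p = 0.0304), STC1 (1.07, adjusted p = 0.0158) and PLOD2 (0.88, adjusted p = 0.00346) rose with HIF1A, P4HA2 (0.56) and STC2 (0.55). IGFBP3 fell here (-0.70, adjusted p = 0.0274), as did VHL, CITED2 (-0.42), MXI1 (-0.57) and ZNF395 (-0.36). PPFIA4 was called in 1 and IGFBP3 in 3 of the 6 fits that left out a library.

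The control libraries of the 3 lines were compared to describe the starting levels of the genes. MCF10AT1 differed from MCF10A for 16 of 37 genes, 8 higher and 8 lower (28.1% of all tested genes, with 13.3% higher and 14.7% lower). MCF10CA1h differed from MCF10A for 23, 14 higher and 9 lower (37.8% of all tested genes, with 19% higher and 18.8% lower). MCF10CA1h differed from MCF10AT1 for 11, 7 higher and 4 lower (21.8% of all tested genes, with 11% higher and 10.8% lower). Each line is a separate clone, so line and clone cannot be told apart, and the comparisons share control libraries. The first count was 9 without MCF10A control b and 9 without MCF10AT1 control a. The second was 12 without MCF10A control b, 14 without MCF10A control c, 13 without MCF10CA1h control a and 12 without MCF10CA1h control c. The last was 6, 7 and 6 without MCF10CA1h control a, b and c.

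Lower glycolysis was higher in MCF10CA1h controls than in MCF10A controls for 7 of 8 genes, with a median log2 difference of 1.03. TPI1 of upper glycolysis, at 13247 ± 1390 in MCF10A and 42603 ± 3551 in MCF10CA1h (1.69, SE 0.24, adjusted p = 0.001), was higher too. LDHA went from 30556 ± 5788 to 53015 ± 243 (0.81, SE 0.19, adjusted p = 0.0103), PKM from 47070 ± 4281 to 94217 ± 4484 (1.00, SE 0.19, adjusted p = 0.00325) and ENO1 from 62016 ± 10284 to 119217 ± 9182 (0.95, SE 0.26, adjusted p = 0.0178). PGAM1 (from 9233 ± 1786 to 21784 ± 993), GAPDH (1.10), ENO2 (2.89) and LDHB (1.05) were also called, and PGK1 was not (0.48, adjusted p = 0.0631). In upper glycolysis GPI (0.56), PFKM (0.74) and ALDOC (2.18) were higher and HK2 was lower (-1.03, adjusted p = 0.00985). GPI was not called there with the replicate block. In MCF10AT1 controls 2 of the 8 lower glycolysis genes were called against MCF10A, PGAM1 (0.93) and ENO2 (3.86), both higher, and 4 were called higher with equal sums, which added GAPDH and ENO1. The ENO2 level in controls was 17.3 ± 5.96 for MCF10A, 264 ± 71.2 for MCF10AT1 and 132 ± 23.0 for MCF10CA1h. PDK3 was higher in both (2.05 and 2.39), and SLC16A1 was lower in both (-1.30 and -1.19).

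The hypoxia response genes went mostly the other way. In MCF10CA1h controls 9 of 12 differed from MCF10A, 7 lower and 2 higher, with a median log2 difference of -1.22. NDRG1 was 29560 ± 11909 in MCF10A and 2142 ± 582 in MCF10CA1h (-3.74, SE 0.39, adjusted p = 0.000233), and CA12 was 12544 ± 4074 and 3548 ± 627 (-1.78, SE 0.47, adjusted p = 0.0155). EGLN3 (-3.81), KDM3A (-1.82), ANKRD37 (-1.58), VEGFA (-1.35) and BNIP3L (-1.09) were lower as well, and ANGPTL4 (1.09) and PGF (1.23) were higher. In MCF10AT1 controls CA12, at 283 ± 220 (-5.67, SE 0.47, adjusted p = 0.000242), NDRG1 (-3.56), ADM (-1.71) and KDM3A (-0.63) were lower than in MCF10A, and BNIP3 (0.85) and CA9 (7.02) were higher. With equal sums VEGFA and BNIP3L lost their call in MCF10CA1h against MCF10A, and KDM3A and BNIP3 in MCF10AT1 against MCF10A. With the replicate block ANGPTL4 lost it in the first comparison and KDM3A in the second. SLC2A3 was lower in MCF10AT1 controls (-5.22, SE 0.75, adjusted p = 0.00222), as was SLC2A1 (-1.75, SE 0.19, adjusted p = 0.000661). MCF10CA1h controls were not called against MCF10A for either (-1.74, adjusted p = 0.0922, and -0.44, adjusted p = 0.0898). They were above MCF10AT1 for both, by 3.48 (adjusted p = 0.0106) and 1.31 (adjusted p = 0.00152).

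**Figure D4:**
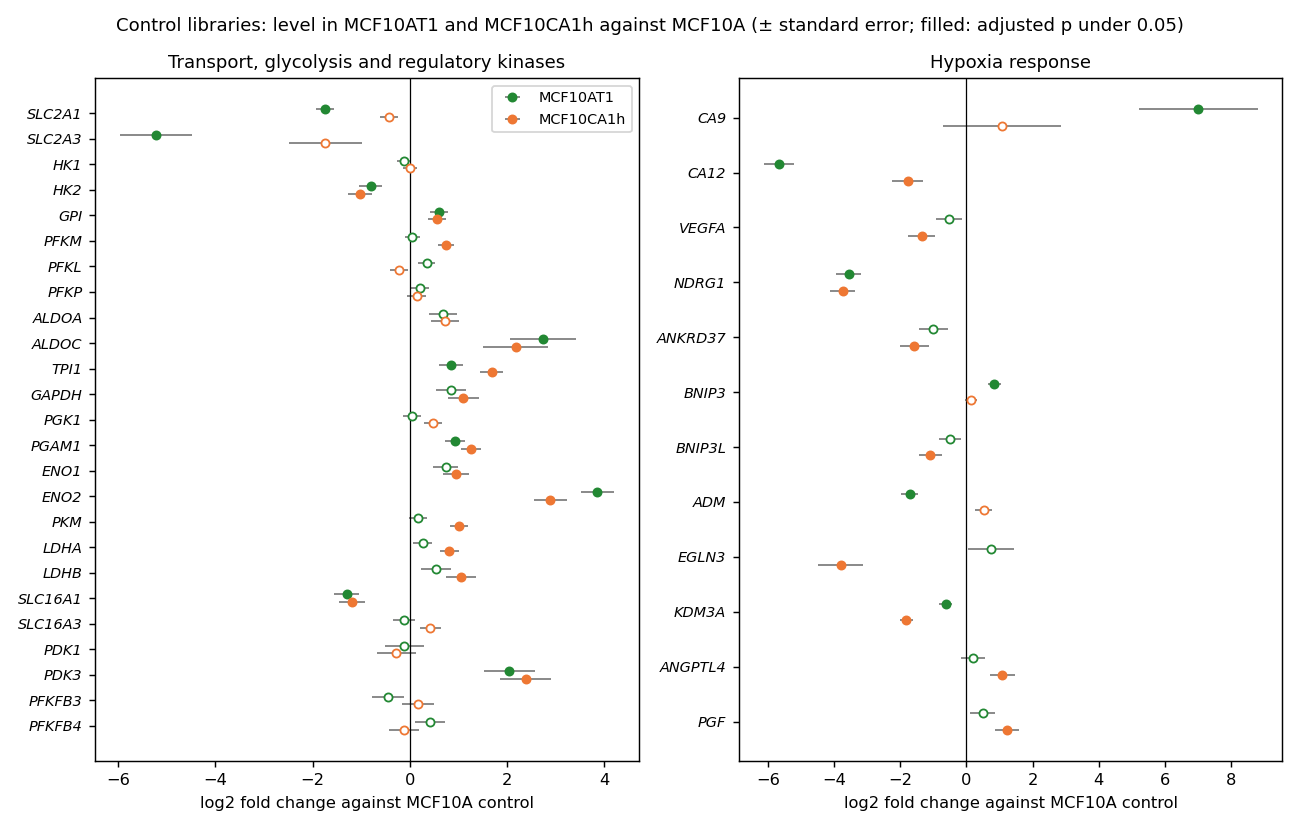
Log2 fold change (x axis) of the control libraries of MCF10AT1 (green) and MCF10CA1h (orange) against those of MCF10A for the transport, glycolysis and kinase genes (left) and the hypoxia response genes (right); bars are standard errors of the fit with 3 libraries per group and filled points have an adjusted p under 0.05. Lower glycolysis genes lie to the right of 0 in both lines, and NDRG1 and CA12 lie to the left in both.

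The mean log2(normalized count + 1) of the 37 genes was taken in each library as a description. It was 11.18 ± 0.28 in control and 11.16 ± 0.22 in knockdown libraries of MCF10A, 11.22 ± 0.15 and 11.38 ± 0.18 in MCF10AT1, and 11.25 ± 0.15 and 11.54 ± 0.07 in MCF10CA1h (SD, n = 3 each). For the 12 hypoxia response genes alone the means were 9.49 ± 0.44 and 9.52 ± 0.25 in MCF10A, 9.13 ± 0.23 and 9.31 ± 0.24 in MCF10AT1, and 8.56 ± 0.35 and 9.23 ± 0.11 in MCF10CA1h. The MCF10CA1h values ranged from 8.23 to 8.92 in control and from 9.11 to 9.33 in knockdown libraries, which do not overlap, while the arms overlapped in the other lines. In MCF10A, 9 of the 12 log2 fold changes were below 0 (median -0.26). The MCF10A means include CA9, at a log2 fold change of 3.21 with controls of 336, 6.84 and 0. The 37 genes made up 1.97% ± 0.30 of the library sum in MCF10A controls and 2.09% ± 0.17 in the MCF10A knockdown. The corresponding shares were 2.40% ± 0.14 and 3.23% ± 0.72 in MCF10AT1 and 3.25% ± 0.16 and 3.50% ± 0.09 in MCF10CA1h. GAPDH alone made up 0.542% of the sum in MCF10A controls and 1.11% in MCF10CA1h controls.

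The spread between replicates of these genes was below that of all genes in 5 of 6 groups. The 37 were not matched to other genes by level, and the part of level in this was not tested. The median coefficient of variation of the 37 was 18.9% in MCF10A controls, 30.8% in MCF10AT1 controls and 8.36% in MCF10CA1h controls, beside 22.6%, 37.5% and 13.2% for all 15897 genes. In the knockdown libraries it was 15.3%, 32.9% and 9.59%, beside 17.7%, 29.6% and 14.0%. The genes often peaked in the same library, 22 of 37 in MCF10A control a, 22 in MCF10AT1 knockdown a and 24 in MCF10A knockdown b. ALDOC was 395, 115 and 35.5 in the MCF10A controls, and ANKRD37 was 359, 251 and 150. For CA9, the highest MCF10A control held 336 and the lowest 0, so its log2 fold changes against MCF10A depend on the pseudocount.

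**Figure D5:**
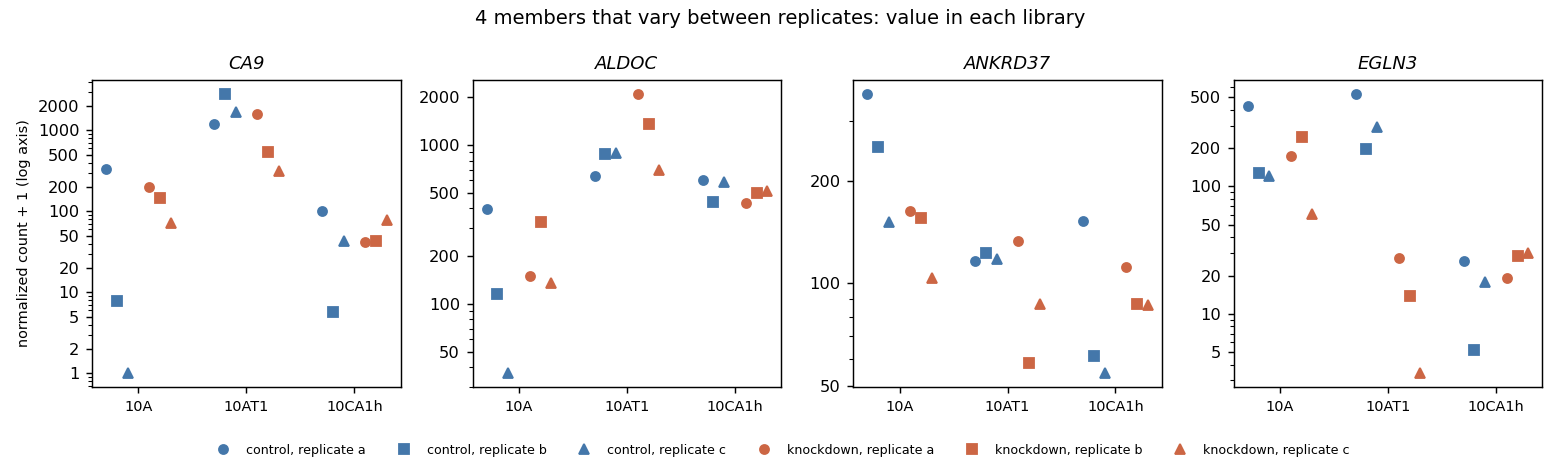
Normalized count plus 1 (log axis) in each library for CA9, ALDOC, ANKRD37 and EGLN3, with control in blue, labelled knockdown in orange, and replicates a, b and c as circles, squares and triangles. Control replicate a of MCF10A is the highest control of that line for all 4 genes.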

How the data were processed

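The authors sequenced RNA of the 18 libraries from both ends, quantified the reads against the hg38 transcriptome with Kallisto (0.46.1) and normalized gene counts with DESeq2 (1.26.0) in R (4.1.1). The methods text describes ribosomal RNA-depleted total RNA, while its heading and the labels name polyA RNA. The deposited values are a signal, the authors' normalized counts, written with 2 decimals. Of the rows, 24639 named no gene and held no values, 7 genes had no usable values, and 35933 were used, 35894 with a symbol. Between 16.0% and 47.0% of low values lay at whole multiples of the most frequent low value of their library, so reads were not recovered and no count test was run.

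Values were tested on the log2(normalized count + 1) scale by limma 3.58.1 in R 4.3.3 (lmFit, then eBayes allowing for an intensity trend), two-sided, with Benjamini-Hochberg adjustment over all tested genes and a threshold of 0.05. A fold change on this scale understates the change of low values. Each line was fitted alone, the 9 control libraries together, and the differences between lines in a fit of all 18. The script was tested on simulated data. Python 3.11.15 was used for the remaining values (NumPy 2.4.6, SciPy 1.17.1, pandas 2.3.3) and the figures (matplotlib 3.10.9). Sequences are from RefSeq and gene positions from the hg38 annotation.

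The genes and lists were chosen with earlier results of these data known. Every one of the 37 genes is named, and values of every library are given for those called in a knockdown comparison with a log2 fold change of at least 1 in size. The 4 largest calls of each other list per line were named, with HIF1A, EPAS1, VHL and EGLN1, and other called genes of these lists were named after their values were seen. The genes given by library beyond that rule (ALDOA, GAPDH, VEGFA, PDK3, CA9, ALDOC and ANKRD37) were picked after their values were seen. A result that falls under this rule is not reported here. The replicate letters come from the sample titles, which do not say what they share. Same-lettered libraries of the 2 arms had correlated departures from their group means in MCF10A and MCF10AT1. The r was 0.22, 0.20 and 0.12 in MCF10A, 0.11, 0.29 and 0.48 in MCF10AT1, and -0.01, 0.02 and 0.05 in MCF10CA1h over 15897 genes. The main fits take no account of this pairing, and neither do the figures. The fit with the letter as a replicate block is given as an alternative, and values are from it only where it is named. Alternatives tried were equal sums, the replicate block, a joint fit, no intensity trend, no filter or a filter at a mean of 50, a pseudocount of 0.5 or 5, and leaving out each library.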

Additional observations from a re-analysis of the deposited data

Results flagged for a closer look

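The knockdown effect differed between lines for 25 pairs of a gene and a comparison, by the interaction test of the joint fit (adjusted p under 0.05). Of the 37 genes 24.3%, 10.8% and 32.4% were called for MCF10AT1 against MCF10A, MCF10CA1h against MCF10A and MCF10CA1h against MCF10AT1. The shares of all tested genes were 21.6%, 5.34% and 18.2%, so the first share is near that of all tested genes. The values below are differences of log2 fold changes. MCF10AT1 lay above MCF10A for SLC2A3 (8.27), CA12 (4.25), ANGPTL4 (2.80), ADM (2.52) and SLC16A3 (1.60) and below it for EGLN3 (-4.39), HK2 (-1.88), PDK1 (-1.58) and PFKP (-0.81). MCF10CA1h lay above MCF10A for SLC2A3 (5.16), ANGPTL4 (2.43), NDRG1 (2.26) and PFKP (1.01). MCF10CA1h lay above MCF10AT1 for EGLN3 (5.76), HK2 (1.91), NDRG1 (1.87), PFKP (1.82), KDM3A (1.23), PGK1 (0.89) and SLC2A1 (0.68) and below it for CA12 (-3.76), SLC2A3 (-3.11), PGF (-2.29), SLC16A3 (-0.90) and HK1 (-0.58). No group had 4 or more libraries, so single libraries were not tested as outliers.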

How the results depend on the processing

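Of the knockdown counts, MCF10A went from 2 to 5 genes with the replicate block, MCF10AT1 from 8 to 16 in the joint fit, and MCF10CA1h from 9 to 4 without the intensity trend and to 0 in the joint fit. The cause was not tested. Pseudocounts of 0.5 and 5, no filter, a mean of at least 50 and equal sums kept every count over the 37 genes within 1.5 times, and so did the replicate block apart from MCF10A. Counts over shorter lists moved more. With equal sums, lower glycolysis went from 2 to 4 and upper glycolysis from 4 to 2 in MCF10AT1 against MCF10A controls, lower glycolysis from 0 to 2 in the MCF10CA1h knockdown and lactate transport from 0 to 1 in MCF10CA1h against MCF10AT1 controls. With the replicate block, upper glycolysis went from 4 to 1 in MCF10AT1 against MCF10A controls and from 2 to 1 in MCF10CA1h against MCF10AT1 controls, and in the MCF10A knockdown from 0 to 1, as did the regulatory kinases. The hypoxia response went from 1 to 2 in the MCF10A and from 4 to 7 in the MCF10AT1 knockdown. Among the lists of other pathway genes, the block moved the hypoxia-related count from 0 to 8 in MCF10A and from 7 to 16 in MCF10AT1, and the glycolysis-related count from 1 to 2 and from 6 to 12. It moved the latter from 5 to 3 in MCF10AT1 against MCF10A controls. Over all tested genes the block moved the share called from 2.65% to 7.6% in the MCF10A and from 13% to 24.5% in the MCF10AT1 knockdown. The joint fit gave 15 glycolysis-related and 16 hypoxia-related genes in MCF10AT1, 1 hypoxia-related gene in MCF10A, and none of either in MCF10CA1h. In the fits that left out a library the knockdown counts ranged from 1 to 6 in MCF10A, 3 to 8 in MCF10AT1 and 5 to 9 in MCF10CA1h. The control counts ranged from 9 to 24 for MCF10AT1 against MCF10A, 12 to 27 for MCF10CA1h against MCF10A and 6 to 15 for MCF10CA1h against MCF10AT1, and the differences of the knockdown effect from 7 to 15, 1 to 5 and 7 to 15 for the same pairs. Single genes were followed in a line if called there, or if called with at least a 2-fold change in any line. The 4 largest calls of each other list, METTL3, HIF1A, EPAS1, VHL and EGLN1 were followed too. Among these, signs turned only for uncalled genes, each in fits without a library. The signs of the other genes were not followed, and the median of the 37 changed sign with equal sums in MCF10A and MCF10AT1. In MCF10A, EGLN3 ranged from -0.87 to 0.14 (0.13 without knockdown c) and VHL from -0.12 to 0.20 (-0.036 without knockdown c). In MCF10AT1, HIF1A ranged from -0.50 to 1.16 and EPAS1 from -0.55 to 0.31 (0.08 without knockdown b), and in MCF10CA1h EGLN1 from -0.042 to 0.14. Over the single genes followed and their alternatives, 784 results kept direction and side of the threshold, 101 lost it, 14 gained it and 9 changed sign. A fit that leaves 2 libraries in an arm has less power by construction. Depth per gene is unknown, so counting error is not given, and each arm is 1 clone.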
